A study of Mus musculus with 6 samples.

Results

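The genes of oxidative phosphorylation were taken from a CITE-seq study of immune cells from mouse brain, in which the RNA and antibody tags of single cells are read together. The members were the genes whose symbol starts with Nduf, Sdh, Uqcr, Cox4, Cox5, Cox6, Cox7, Cox8 or Atp5, together with the protein-coding genes of mitochondrial DNA, whose symbols start with mt-. The rule found 107 members of 19848 genes, of which 94 are encoded in the nucleus and 13 in mitochondrial DNA. By symbol, the nuclear members comprised 38 subunits and 8 assembly factors of complex I, and 4 subunits and 4 assembly factors of complex II. A further 8 genes were of complex III, 16 of complex IV and 16 of complex V. These roles follow the symbols throughout, so Ndufa4 and Ndufa4l2 are counted with complex I, whichever complex their proteins belong to.

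Oxidative phosphorylation makes most of the ATP of resting cells. Complexes I and II pass electrons from NADH and succinate to ubiquinone, complex III passes them to cytochrome c, and complex IV passes them to oxygen, while complex V, the ATP synthase, uses the proton gradient that complexes I, III and IV build. All complexes but complex II combine subunits made in the cytosol with subunits made inside the mitochondrion, and the latter are transcribed from both strands of mitochondrial DNA as long precursors. In macrophages and microglia the balance between respiration and glycolysis is known to shift with activation.

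The brains came from 24 female C57BL/6 mice, 6 in each of 4 groups: 12 weeks old with vehicle (young control), 12 weeks old with antibiotics that deplete the gut microbiota (young antibiotic), 72 weeks old with vehicle (aged control) and 72 weeks old with antibiotics (aged antibiotic). Brains were pooled into 12 hashtagged pools, 3 per group, so that a replicate below is a pool and not a mouse. The young pools shared a 10x well and the aged pools shared another, so age and well cannot be told apart. Hashtags 1 to 3 marked control pools and 4 to 6 antibiotic pools in both wells, so treatment and hashtag cannot be told apart either.

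The table held 13052 cells of 10 types named by the authors, all of them singlets by the authors' hashtag call, from 760 to 1590 cells per pool, with a median of 6512 to 7226.5 raw UMIs (unique RNA molecules) per cell and pool. Of the types, microglia were by far the most numerous with 9403 cells, and the 9 NK cells were too few for any pool mean. All markers of a type were highest in that type, except in CD4+ T cells, Ly6CLow monocytes and innate lymphoid cells (ILCs). There 2 of 5, 4 of 5 and 5 of 6 markers were highest in their own type. The authors' labels are Ly6CLow and Ly6CHigh, and the word monocytes is added here. Of 5 dendritic cell genes, Cd209a (3.48), Flt3 (0.29) and Xcr1 (0.02) were highest in Ly6CLow, Clec9a in B cells and Siglech in microglia. Whether Ly6CLow holds cells other than monocytes was not tested. A total of 59 cell barcodes occurred in both wells, 118 cells in all, and counts of calls without them stand with the other alternatives. All levels below are the authors' depth-corrected UMI values per cell, averaged over the cells of a pool. They come from the 3' end of transcripts and are not divided by length, so levels are compared between samples and types and not between genes.

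Promoters of 4 nuclear members are shown, Ndufa1, Atp5k, Cox6a1 and Atp5j2. Together with Cox6a2 they were the nuclear members called higher with age in microglia in both treatment arms. How firm each call was is given with its values, for Atp5j2 in controls only. The sequences are from RefSeq (GRCm38.p6), 250 bases before to 50 bases after the start, 5' to 3' on the gene's strand, with matches to 3 motifs in capitals. The motifs are CGCATGCG, the core of the site of NRF1, CCGGAAG, the site of ETS factors such as GABP, and AAGATGGC, a site of YY1, searched on both strands. No match overlapped another in these 4 sequences.
Ndufa1, chrX:37191189-37191488, - strand: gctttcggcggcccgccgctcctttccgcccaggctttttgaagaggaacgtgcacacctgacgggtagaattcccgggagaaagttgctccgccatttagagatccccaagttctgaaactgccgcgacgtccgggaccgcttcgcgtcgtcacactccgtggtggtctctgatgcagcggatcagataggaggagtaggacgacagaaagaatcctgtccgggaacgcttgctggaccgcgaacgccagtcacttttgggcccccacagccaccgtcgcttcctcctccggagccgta
Atp5k, chr5:108434350-108434649, - strand: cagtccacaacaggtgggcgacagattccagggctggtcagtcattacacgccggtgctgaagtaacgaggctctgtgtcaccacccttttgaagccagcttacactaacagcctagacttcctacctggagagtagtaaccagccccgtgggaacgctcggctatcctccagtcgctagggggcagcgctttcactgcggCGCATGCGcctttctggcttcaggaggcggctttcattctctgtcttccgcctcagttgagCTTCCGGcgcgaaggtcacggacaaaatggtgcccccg
Cox6a1, chr5:115348909-115349208, - strand: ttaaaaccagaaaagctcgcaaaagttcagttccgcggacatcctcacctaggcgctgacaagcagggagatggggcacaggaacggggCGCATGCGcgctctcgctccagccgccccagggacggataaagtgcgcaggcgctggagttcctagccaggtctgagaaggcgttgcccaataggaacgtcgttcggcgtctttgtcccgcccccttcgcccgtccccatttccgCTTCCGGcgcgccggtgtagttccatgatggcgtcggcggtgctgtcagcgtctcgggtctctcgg
Atp5j2, chr5:145191492-145191791, - strand: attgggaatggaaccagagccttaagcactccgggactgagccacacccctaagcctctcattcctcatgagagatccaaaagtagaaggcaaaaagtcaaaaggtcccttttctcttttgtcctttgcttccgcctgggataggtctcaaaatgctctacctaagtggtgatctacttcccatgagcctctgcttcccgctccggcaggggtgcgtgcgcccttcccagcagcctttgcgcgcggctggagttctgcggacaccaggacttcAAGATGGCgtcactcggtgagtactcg

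A promoter was found for 78 of the 94 nuclear members, some with more than 1 start, which gave 83 promoters. The NRF1 core was in 11 of these (13.3%) against 1.87% of all 32851 promoters of the same length. A longer form of the same motif, with G before it, C after it and the A replaced by any base, was searched first and was in 21 of the 83 (25.3%) against 4.60% of all. The core was added after the counts of the longer form had been seen. The ETS motif was in 21 (25.3%) against 8.86%, and the YY1 motif in 11 (13.3%) against 2.75%. Atp5k and Cox6a1 each held the NRF1 core and the ETS motif, Atp5j2 held the YY1 motif alone of the 3 printed motifs, and Ndufa1 held none of them. A match describes the letters in the window and not binding.

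Across cell types, nuclear-encoded members were lowest in microglia and in Ly6C+Ly6G+ cells, higher in every lymphocyte type, and highest in Ly6CHigh monocytes. The authors named the types from these same cells, so these levels are a description with no test. The summed level of the nuclear members was 68.6 ± 2.96 (SD, n = 12 pools) in microglia, 72.1 ± 5.31 (n = 9) in Ly6C+Ly6G+ cells and 78.6 ± 7.52 (n = 12) in border-associated macrophages (BAM). It was 103 ± 12.4 (n = 12) in Ly6CLow monocytes, 105 ± 4.99 (n = 12) in B cells, 116 ± 11.1 (n = 8) in CD4+ T cells, 123 ± 8.91 (n = 11) in ILCs, 128 ± 10.6 (n = 11) in CD8+ T cells and 150 ± 16.0 (n = 11) in Ly6CHigh monocytes. The ranges of mean ± SD of neighbours in this order overlapped, except between the lower 3 and the upper 6 types. Set against microglia of the same pool, Ly6CHigh monocytes stood 1.11 ± 0.19 (SD) higher on the log2 scale, a 2.17-fold level, and were above microglia in 11 of 11 pools. Of the 88 nuclear members that passed the low-value filter in microglia, 78 had a higher mean in Ly6CHigh monocytes, where the median member differed by 1.02 against -0.23 over all 8759 genes. The median raw UMIs of Ly6CHigh pools ran from 605 to 14748.5, and with cells of at least 2000 UMIs the difference was 1.24. Those of microglial pools ran from 6411 to 7304. Within a type the nuclear sum was also higher in deeper cells. It was 48.2 under 2000 UMIs and 92.9 at 16000 or more in young microglia, and 52.1 and 106 in aged microglia. In young Ly6CLow monocytes it was 54.0 and 127. The types were not compared at matched depth, so the part of depth in their order was not tested.

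**Figure D1:**
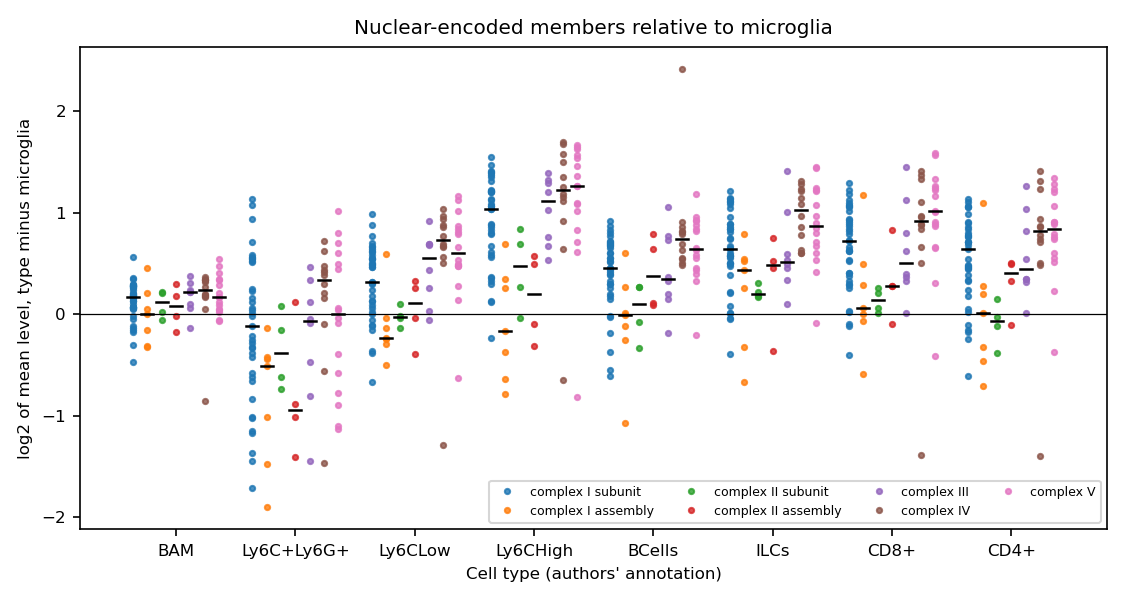
The log2 of the mean level in a cell type minus that in microglia (y axis) is plotted for each of the 88 nuclear members in 8 types (x axis), coloured by complex, with black bars for the median of each complex. Most members lie above 0 in Ly6CHigh monocytes and lymphocytes, and in Ly6C+Ly6G+ cells 38 lie above and 50 below.

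The difference between types was not the same for every complex. Complex V genes summed to 18.7 in microglia and 44.5 in Ly6CHigh monocytes, and complex IV genes to 17.2 and 40.4. Complex II, the only complex with no mitochondrially encoded subunit, summed to 1.92 in microglia, 2.80 in Ly6CHigh monocytes and 2.18 in CD8+ T cells. Complex I assembly factors summed to 1.12 in microglia and 1.23 in Ly6CHigh monocytes. Complex I subunits summed to 22.4 in microglia and 46.3 in Ly6CHigh monocytes, and complex III genes to 6.64 and 14.5. In Ly6CHigh monocytes the proportionate difference was thus larger in complexes I, III, IV and V than in complex II or in complex I assembly factors.

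Single members differed in size and direction. Cox5a and Cox5b, nuclear subunits of complex IV, had the largest differences in Ly6CHigh monocytes: Cox5a stood at 2.99 ± 0.31 against 0.89 ± 0.05 in microglia of the same 11 pools. Atp5h, a stalk subunit of the ATP synthase, stood at 4.47 ± 0.69 in CD8+ T cells against 1.49 ± 0.05. Ndufc2, an accessory subunit of complex I, went the other way, with 0.78 ± 0.24 in CD4+ T cells against 1.22 ± 0.05 and a lower value in 8 of 8 pools. In Ly6C+Ly6G+ cells Uqcrc1, a core subunit of complex III, stood at 0.15 ± 0.10 against 0.51 ± 0.03, while Ndufb7 stood at 1.62 ± 0.48 against 0.71 ± 0.05. The near-equal sums of these cells and microglia therefore hid members that differed in opposite directions, each in 9 of 9 pools.

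The mitochondrially encoded members followed another order. Their sum was lowest in Ly6C+Ly6G+ cells, at 94.7 ± 17.5, and below microglia in 9 of 9 pools by 1.37 ± 0.31 on the log2 scale. Microglia stood at 250.1 ± 42.8, and Ly6CHigh monocytes, the highest type for nuclear members, stood at 276.9 ± 67.8. B cells had 418 ± 90.0 and were above microglia in 12 of 12 pools. The highest mean was that of Ly6CLow monocytes, 448.7 ± 213.6, with the widest spread, above microglia in 10 of 12 pools. That rank depended on cells of low depth. With cells of at least 2000 raw UMIs Ly6CLow monocytes stood at 254.7 ± 43.3. B cells then stood at 412.1 ± 58.1, CD4+ T cells at 286.2 ± 29.6, CD8+ T cells at 276.9 ± 21.9 and ILCs at 272.3 ± 15.7. Over all cells, the ratio of the mt- to the nuclear sum was 1.32 ± 0.25 in Ly6C+Ly6G+ cells and 1.86 ± 0.50 in Ly6CHigh monocytes. It was 3.64 ± 0.53 in microglia, 4.00 ± 0.85 in B cells and 4.64 ± 2.74 in Ly6CLow monocytes. With at least 2000 UMIs the mean mt- and nuclear sums were 254.7 and 114.2 in Ly6CLow monocytes and 202.1 and 70.9 in microglia, which puts Ly6CLow monocytes below microglia.

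**Figure D2:**
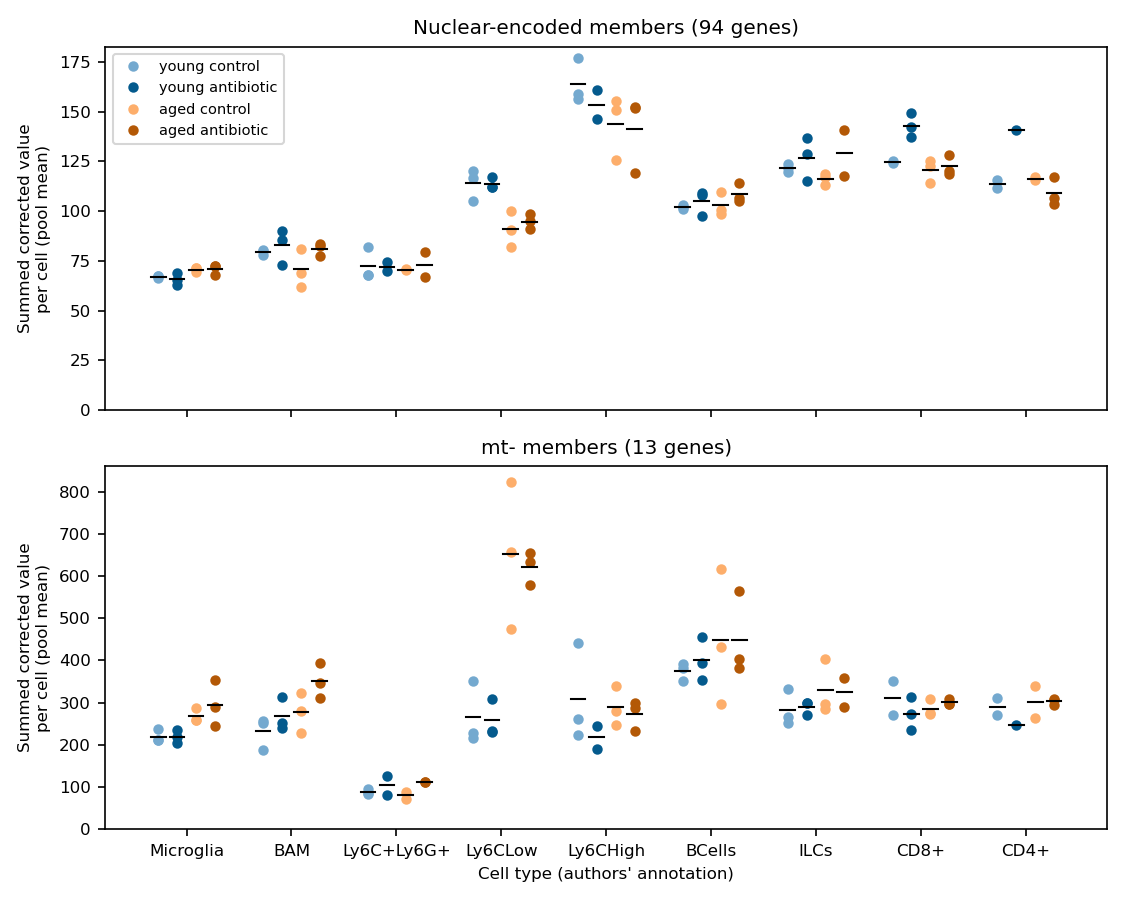
Summed corrected value per cell (y axis) of the 94 nuclear members (top) and the 13 mt- members (bottom) in each pool, by cell type (x axis) and group (colour), with black bars for group means. The aged pools of Ly6CLow monocytes stand above the young ones for the mt- members, at 474 to 823 against 216 to 351.

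Of the tissue-restricted isoforms, Cox4i2, Cox7a1, Cox8b and Ndufa4l2 had type means of at most 0.03. Cox6b2, an isoform known from testis, had its highest means in Ly6CLow monocytes, 0.116 ± 0.086 (SD, n = 12), and BAM, 0.111 ± 0.049. Cox6a2, the isoform of a complex IV subunit known from heart and skeletal muscle (chr7:128205435-128206366, GRCm38.p6), had other high types. Its mean was 0.72 ± 0.82 (SD, n = 12) in cells named B cells, 0.30 in ILCs and 0.09 ± 0.05 in microglia. Among the 487 cells named B cells it followed the absence of B cell genes: the 117 cells with neither Cd79a nor Ms4a1 had a mean of 1.95, against 0.12 in the other 370. Few cells carried these means, since Cox6a2 was above 0 in 20 of the 117 and 8 of the 370. Those 117 cells also had Siglech at 3.50 and Bst2 at 6.83, genes known from plasmacytoid dendritic cells, against 0.58 and 1.13. Among ILCs, the 37 cells with Siglech had a Cox6a2 mean of 2.84 and the 293 without it 0.051, from 4 and 7 cells with a value above 0. These subsets were chosen after the values were seen.

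Antibiotics left nearly all members without a detected change in microglia. Differences were tested with limma on log2(pool mean + 0.05), with Benjamini-Hochberg adjustment over all genes and a threshold of 0.05. The p-values measure the spread between pools of 2 wells. Of 8759 genes tested, 0.137% were called at 12 weeks and 3.23% at 72 weeks. With the ages averaged 5.4% were called, and the antibiotic effect differed between ages in 0%. No member was called in young mice by limma, where 4 nuclear and 0 mt- members had an unadjusted p under 0.05, or in aged mice, where 4 nuclear and 1 mt- member did. For the difference between the ages no member was called either, with 1 nuclear and 0 mt- members at an unadjusted p under 0.05. Of all genes 928, 1610 and 579 had such a p in these contrasts.

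Over both ages, Ndufb2, an accessory subunit of complex I, was the only member called. Its level was 0.269, 0.274 and 0.288 in the young control pools and 0.197, 0.231 and 0.226 in the young antibiotic pools. In aged mice it was 0.273, 0.315 and 0.287 in control pools and 0.267, 0.257 and 0.257 in antibiotic pools. Every control pool lay above every antibiotic pool. Ndufb2 fell by 0.21 ± 0.05 (SE) on the log2 scale (limma, adjusted p = 0.0257), and the call was lost in 6 of 20 alternatives, 4 of which left out 1 pool: young control 3, young antibiotic 1, aged control 2 or aged antibiotic 2 (adjusted p from 0.023 to 0.077 over all 20). The median log2 difference was -0.01 over the 88 nuclear members, 0.04 over the 13 mt- members and -0.01 over all genes.

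Age differences in microglia were found in both arms, which are separate pools in the same wells. Of all genes tested, 2.66% were called in controls (2.2% higher in aged mice), and 6.15% in antibiotic pools (4.95% higher). In controls 5 of 88 nuclear and 4 of 13 mt- members rose and none fell. In antibiotic pools 12 nuclear and 11 mt- members rose and none fell. The median mt- member stood 0.31 higher in aged controls and 0.42 higher in aged antibiotic pools, the median nuclear member 0.05 and 0.08, and the median of all genes 0.02 and 0.03.

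**Figure D3:**
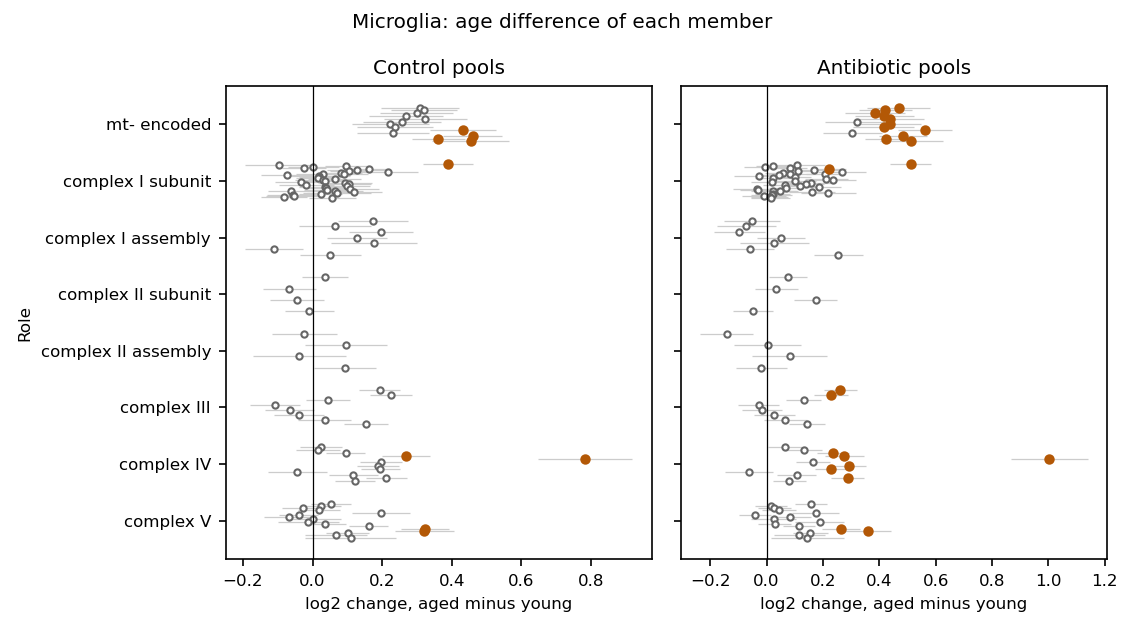
The log2 change of each member from young to aged microglia (x axis, bars are standard errors) is plotted by role (y axis) in control pools (left) and antibiotic pools (right). Filled points passed the test; all 13 mt- members lie above 0 in both arms.

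Cox6a2 had the largest change of any nuclear member. It stood at 0.074, 0.064 and 0.046 in young control pools and 0.143, 0.165 and 0.115 in aged control pools. In antibiotic pools it stood at 0.036, 0.035 and 0.054 in young mice and 0.100, 0.156 and 0.149 in aged mice. No young pool reached an aged pool. The log2 change was 0.78 ± 0.14 (SE) in controls (limma, adjusted p = 0.00266) and 1.00 ± 0.14 in antibiotic pools (adjusted p = 0.000121), and the call held in all alternatives run. Cox6a2 had a value above 0 in 224 of 5044 young microglia (4.44%) and 367 of 4359 aged microglia (8.42%), at median depths of 6809 and 7118 raw UMIs. In aged CD4+ T cells it was found in 0 of 142 cells, which allows a share of up to 2.11% of cells with a detected value but sets no limit on cells that express the gene. In aged CD8+ T cells it was found in 0.48%. BAM had it in 3 of 240 young cells (1.25%) and 9 of 266 aged cells (3.38%). Cells named B cells went the other way, with 9.43% of young and 2.06% of aged cells. Age was not tested in these types, so the rise is not shown to be particular to microglia. The markers of B cells and dendritic cells in microglia summed to 1.65 to 2.93 and 0.01 to 0.03 per pool across the 4 groups, and their part in the Cox6a2 result was not tested. The dendritic sum held 4 genes and left out Siglech, which is also a microglial marker and stood at 6.23 in microglia. That sum therefore does not measure cells like the Siglech-bearing ones described above.

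Complex I was represented by Ndufa1, an accessory subunit needed for assembly of the complex. It stood at 0.354, 0.336 and 0.381 in young and 0.446, 0.508 and 0.495 in aged control pools, and at 0.344, 0.334 and 0.390 in young and 0.513, 0.542 and 0.528 in aged antibiotic pools. The groups did not overlap in either arm. The log2 change was 0.39 ± 0.07 (limma, adjusted p = 0.00508) in controls and 0.51 ± 0.07 (adjusted p = 0.000222) in antibiotic pools, and held in all alternatives. Ndufa2 also rose in the antibiotic pools. Of the 37 complex I subunits tested, these were the only ones called in either arm, and none of the 4 complex II subunits was.

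Complexes IV and V held most of the other called members. Cox6a1, the widely expressed counterpart of Cox6a2, stood at 0.867 ± 0.015 (SD, n = 3) in young and 1.05 ± 0.03 in aged controls. Atp5j2, the f subunit of the ATP synthase membrane part, stood at 1.01 ± 0.03 and 1.28 ± 0.09. Atp5k, the e subunit of the same part, stood at 0.391 ± 0.003 and 0.502 ± 0.024. These changes were 0.27, 0.32 and 0.32 on the log2 scale (limma, adjusted p = 0.0449, 0.0122 and 0.0487). The calls of Atp5k and Cox6a1 in controls were lost in 12 and 9 alternatives, among them leaving out any 1 of the 6 control pools, with adjusted p up to 0.182 and 0.171. The call of Atp5k was also lost without the cells whose barcode occurred in both wells. That of Atp5j2 was lost without young control 3 or aged control 2. Without either of those pools 2 nuclear members were called in controls, and without any of the other 4 control pools 3 were. In antibiotic pools 5 were called without young antibiotic 2, 6 without aged antibiotic 2 and 8 without young antibiotic 1. The shares of all genes called in these fits are not given here, so such moves are no result about the members. Atp5k and Cox6a1 rose by 0.36 and 0.28 in antibiotic pools (limma, adjusted p = 0.0157 and 0.0219), and these calls were lost in 4 and 5 of 21 alternatives. In antibiotic pools Cox6c and Cox7c, nuclear subunits of complex IV, rose by 0.29 each, and Cox5b, Cox7a2, Uqcr10 and Uqcr11, the last 2 of complex III, rose by 0.23 to 0.26. Cox7c stood at 1.71 ± 0.07 in young and 2.09 ± 0.10 in aged antibiotic pools.

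**Figure D4:**
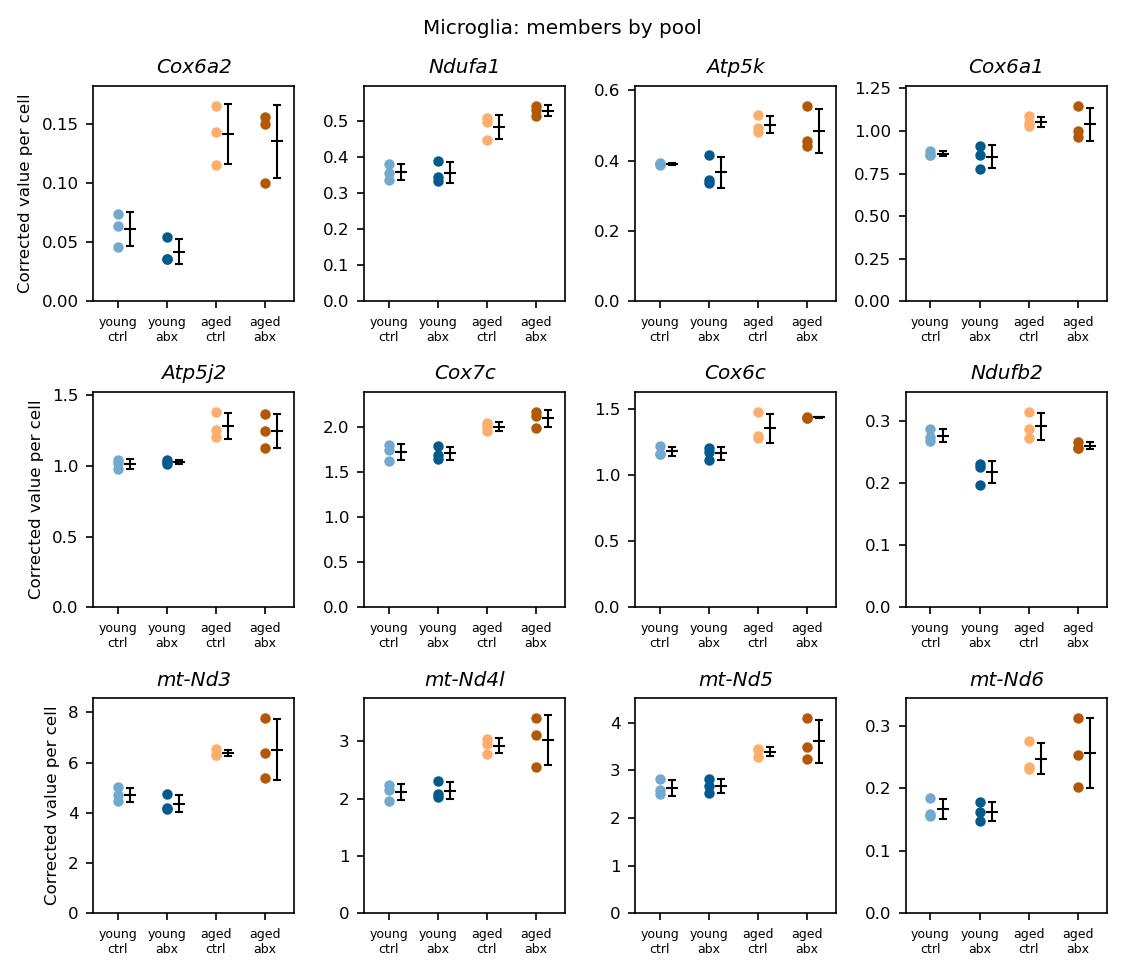
Mean corrected value per microglial cell (y axis, from 0) in each of the 12 pools for 12 members, by group (x axis, ctrl for control and abx for antibiotic), with the mean and SD in black beside the points. Cox6a2 and Ndufa1 are higher in every aged pool than in any young pool, and Ndufb2 is lower in every antibiotic pool than in any control pool.

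Among the mt- members, mt-Nd3, mt-Nd4l, mt-Nd5 and mt-Nd6 were called in both arms, all of them complex I subunits. mt-Nd4l stood at 2.24, 2.15 and 1.96 in young and 2.96, 2.78 and 3.04 in aged control pools. In antibiotic pools it stood at 2.31, 2.03 and 2.08 in young and 3.10, 3.42 and 2.55 in aged mice, again without overlap. The log2 change was 0.46 ± 0.09 (limma, adjusted p = 0.00475) in controls and 0.48 ± 0.09 (adjusted p = 0.00159) in antibiotic pools. mt-Nd3 rose by 0.43 and 0.56, mt-Nd5 by 0.36 and 0.42, and mt-Nd6 by 0.45 and 0.51. The call of mt-Nd4l held in all alternatives, while those of mt-Nd3, mt-Nd5 and mt-Nd6 in controls were lost in 7, 4 and 9 of 21. Leaving out aged control 1 gave 1 mt- call in controls, and leaving out young control 2, young control 3, aged control 2 or aged control 3 gave 2. The shares of all genes called in those fits are not given here. mt-Nd6 lies on the other strand of mitochondrial DNA from the rest. mt-Nd4l and mt-Nd4 overlap by 7 bases and mt-Atp8 and mt-Atp6 by 43, so reads of such pairs may be split between them.

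Depth moved with these mt- results. Aged microglia under 2000 raw UMIs were 13.4% of cells against 8.82% in young mice, and had a mt- sum of 722 and 543 against 182 and 167 in cells of 4000 to under 8000 UMIs. With cells of at least 2000 UMIs 4 mt- members were called in controls and 5 in antibiotic pools, with medians of 0.20 and 0.25. The share of all genes called was then 3.01% and 9.29%. With cells of at least 4000 UMIs 2 and 4 were called, with medians of 0.15 and 0.16. Nuclear calls numbered 8 and 20 at 4000 UMIs, where the share of all genes called was 3.04% and 10.8%. Aged antibiotic pool 2 had the highest mt- sum, 352.5, and without it the called mt- members of the antibiotic pools numbered 3, against 4 without young antibiotic 2 and 5 without young antibiotic 3. The shares of all genes called without these pools are not given here. Dissociation genes summed to 294 ± 3.83 in aged and 339 ± 5.64 in young controls. Microglial markers summed to 103 ± 3.14 in young and 95.0 ± 3.91 in aged controls, and to 103 ± 3.52 in young and 91.6 ± 2.23 in aged antibiotic pools. In controls CD8+ markers had means of 0.0135 in young and 0.0810 in aged pools, CD4+ markers 0.0135 and 0.0761, and Ly6C+Ly6G+ markers 4.88 and 0.664. The part of these lists was not tested.

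In Ly6CLow monocytes the mt- members rose with age, and 1 nuclear member, in the antibiotic pools, fell. Antibiotics were tested there too, and of 8613 genes 0% were called in each of the 4 contrasts, so no member was called by limma. At an unadjusted p under 0.05 there were 2 nuclear members at 12 weeks, 4 at 72 weeks, 2 with the ages averaged and 6 for the difference of the effects, with 0 mt- members in each, against 365, 535, 525 and 428 of all genes. For age, 0.755% of genes were called in controls (0.546% higher) and 1.95% in antibiotic pools (0.894% higher). In both arms 11 of 13 mt- members rose, by 0.90 to 1.53 on the log2 scale. mt-Atp8 and mt-Nd6 did not pass. No nuclear member was called in controls, where 27 of 85 had an unadjusted p under 0.05, as had 1393 of all genes, and the median was -0.33 against -0.21 over all genes. That nuclear median was -0.10 with cells of at least 2000 UMIs, against -0.03 over all genes. At a minimum of 4000 UMIs it was -0.05 against -0.01. Without aged control 3 there were 4 nuclear calls, and the share of all genes called in that fit is not given here. In antibiotic pools Cox6b2 alone was called, and it fell. The nuclear median of the antibiotic pools was -0.25 over all cells, against -0.11 over all genes. It was 0.001 with cells of at least 2000 UMIs and 0.02 with at least 4000, against 0.05 and 0.06 over all genes.

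mt-Cytb, the mitochondrially encoded subunit of complex III, stood at 16.3, 25.2 and 17.2 in young and 71.2, 57.8 and 36.0 in aged control pools. It stood at 15.7, 22.2 and 15.6 in young and 49.98, 49.2 and 48.3 in aged antibiotic pools. No aged pool overlapped a young one. The log2 change was 1.46 ± 0.21 in controls (limma, adjusted p = 0.00167) and 1.48 ± 0.21 in antibiotic pools (adjusted p = 0.00217). Cox6b2 stood at 0.233, 0.242 and 0.265 in young and 0.021, 0.043 and 0.040 in aged antibiotic pools. It fell by 1.82 ± 0.35 (limma, adjusted p = 0.0105), while its control pools stood at 0.034 to 0.122 in young and 0.081 to 0.125 in aged mice. That call was lost with cells of at least 2000 UMIs and without young antibiotic 3 or aged antibiotic 1.

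Depth moved with the mt- calls in Ly6CLow monocytes as well. Cells under 2000 raw UMIs were 114 of 360 aged and 12 of 274 young Ly6CLow monocytes, from 22.1% to 40.3% of the cells of an aged pool and 2.0% to 9.76% of a young one. Their mt- sums were 1343 and 992, against 247 and 229 in cells of 4000 to under 8000 UMIs. With cells of at least 2000 UMIs none of the 13 mt- members was called in either arm, with medians of 0.42 and 0.34. Over all 8721 genes 0 were then called in controls and 5 (0.0573%) in antibiotic pools. With cells of at least 4000 UMIs no mt- member was called, with medians of 0.05 and 0.26 and 0 and 4 calls over all genes, and the mt- sum was 215.1 to 217.7 in aged and 204 to 225 in young control pools. Markers of B cells in this type summed to 1.26 to 18.5 in aged and 0.90 to 1.26 in young control pools, with 1 of 5 and 2 of 5 at 0. Markers of Ly6C+Ly6G+ cells summed to 0.96 to 91.1 in aged and 1.40 to 27.6 in young pools. The 6 markers of ILCs and NK cells, all above 0, summed to 0.54 to 2.19 in young pools, 2.67 to 5.08 in aged control and 2.49 to 4.38 in aged antibiotic pools, with no overlap. The 2 nuclear-retained RNAs did not overlap either, at 121 to 153 in young and 156 to 193 in aged pools. The 4 dendritic cell markers stood at 4.67 to 5.37 in young and 1.28 to 2.00 in aged antibiotic pools, and overlapped in controls. The part of these lists in the result was not tested.

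**Figure D5:**
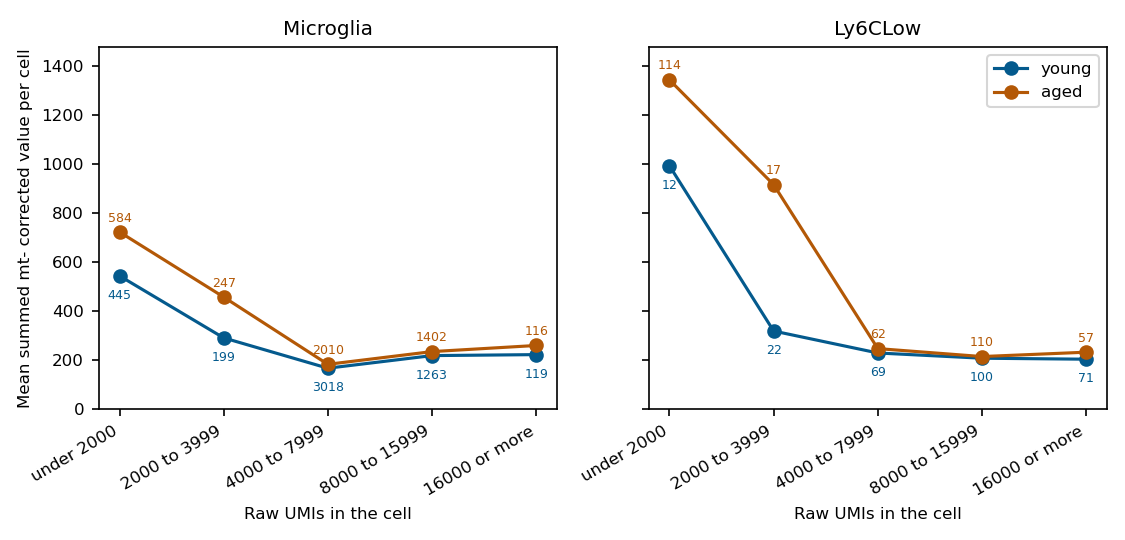
Mean summed mt- corrected value per cell (y axis) against the raw UMIs of the cell in 5 bins (x axis), in young and aged microglia (left) and Ly6CLow monocytes (right), with cell numbers beside the points. Values are highest under 2000 UMIs, at 543 and 722 in microglia and 992 and 1343 in Ly6CLow monocytes.

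The 2 types were compared directly by the difference of their log2 values within each pool. For the age effect 0.0129% of 7753 genes were called in controls and 0.374% in antibiotic pools, and none of the members was. The mt- members differed by a median of 0.90 and 0.76 (limma, lowest adjusted p = 0.21 and 0.182), with 11 and 10 of 13 at an unadjusted p under 0.05, as were 1121 and 1079 of all genes. With cells of at least 2000 UMIs the medians were 0.15 and 0.09. With at least 4000 they were -0.10 and 0.03, with 1 and 8 of 13 members above 0. No difference in age effect between the 2 types was thus detected for any member.

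Few other genes of mitochondrial metabolism were called in microglia. Of all genes 5.4% were called with antibiotics over both ages, and with age 2.66% in controls and 6.15% in antibiotic pools. At these shares a list of 18 genes would hold few calls or none, so such a count is no result about the list. Of 18 tested genes of the tricarboxylic acid cycle and pyruvate dehydrogenase none was called with age or antibiotics over both ages, and of 76 mitochondrial ribosomal protein genes Mrps15 alone fell with antibiotics (-0.40 ± 0.05). Of 18 genes that maintain and express mitochondrial DNA none was called. Sirt3, a mitochondrial deacetylase, and Ucp2, an inner-membrane carrier, rose with antibiotics by 0.28 ± 0.06 and 0.24 ± 0.05 (limma, adjusted p = 0.0149 and 0.0145). Etfb, which carries electrons from fatty acid oxidation toward ubiquinone, fell by 0.21 with antibiotics (adjusted p = 0.0264). Usmg5, a small ATP synthase subunit outside the rule, rose by 0.28 with age in controls (adjusted p = 0.0405).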

How the data were processed

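Immune cells were enriched from digested brains and read with 10x 3' chemistry and hashtags, per the labels' protocols. Cell Ranger 3.0.2, Seurat 3.0.1 and mm10 are named in the submitters' processing notes, and which setting each had is not given in the sources used here. The authors deposited a table of SCTransform-corrected whole-number values, used here as a score because they are model-corrected and no longer raw counts, and a table of cell annotations with raw UMI counts as deposited, of whose 40 columns 33 were not used. Every deposited cell carries the authors' singlet call, and no doublet caller was run here. Antibody tags were not used here.

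Corrected values were averaged over the cells of a type in each of the 12 pools. Types with at least 20 cells in every pool, microglia and Ly6CLow, were fitted with limma 3.58.1 (R 4.3.3) with a trended prior on log2(mean + 0.05), keeping genes whose mean reached 0.05, with all 12 pools in 1 fit and 6 contrasts. The fit was also run on simulated data with known changes and independent noise, and its outcome is not given here. That simulation held no effect of well, hashtag or depth, so it does not bear on these. Levels by type used pools with at least 10 cells. Of the members 93 nuclear and 13 mt- matched RefSeq (GRCm38.p6). Atp5o.1 is a second entry of a repeated symbol and is uncertain, and Atp5g1, Atp5g2 and Atp5g3 encode the same mature protein.

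Named were all mt- members, the called nuclear members with the largest changes (up to 6 per direction in microglia and 3 in Ly6CLow), the nuclear members of smallest p where none was called, tissue-restricted isoforms, the nuclear members furthest from microglia in each type, and called genes of the other lists, with examples given here. Members and lists were chosen with earlier results of these data known. The 10-letter NRF1 motif was searched before its 8-letter core, and both are reported. Alternatives changed the pseudocount (0.5), filter, scaling, averaging, prior, depth minimum and pools.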

Additional observations from a re-analysis of the deposited data

How the results depend on the processing

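Of the log2 changes of named members under all alternatives, 1238 kept direction and side of the threshold, 186 kept direction but lost it, 2 gained it and 4 reversed. The reversals were in Ly6CLow monocytes: with antibiotics over both ages mt-Nd3 was 0.043 with cells of at least 2000 raw UMIs and 0.074 with at least 4000, and with age in controls mt-Nd2 was -0.086 and mt-Cytb -0.104 with at least 4000. The cause of the following moves was not tested. In microglia with antibiotics over both ages, called nuclear members went from 1 to 0 without the filter and 0 with at least 4000 UMIs. With age in control microglia, nuclear calls were 3 without the filter, 3 with a prior without a trend and 8 with at least 4000 UMIs, and mt- calls were 1, 2 and 2. With age in antibiotic microglia, nuclear calls were 7 with a prior without a trend and 20 with at least 4000 UMIs, and mt- calls were 3 without the filter, 5 with at least 2000 UMIs and 4 with at least 4000. In Ly6CLow monocytes with age in controls, nuclear calls were 1 with the mean of log2 values per cell, and mt- calls were 0 with at least 2000 UMIs, 0 with at least 4000 and 1 with a prior without a trend. In Ly6CLow antibiotic pools, nuclear calls were 5 with the mean of log2 values and 0 at either depth minimum, and mt- calls were 0, 0 and 2 in the same order as in controls. The summed mt- level of CD4+ cells minus microglia was 0.45 with at least 2000 UMIs.

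Leaving out each pool in turn, control microglia with age had 2 to 6 nuclear and 1 to 5 mt- calls, antibiotic microglia 5 to 13 and 3 to 13, Ly6CLow nuclear calls were 0 to 4 in controls and 0 to 1 in antibiotic pools, and nuclear calls with antibiotics over both ages in microglia were 0 to 2. The replicate numbers are hashtag numbers and pair no mice. With hashtag number as a replicate block, age calls in microglia were 4 nuclear and 3 mt- in controls and 12 and 9 in antibiotic pools, and in Ly6CLow 0 and 11, and 1 and 11. Without cells of shared barcodes, age calls in microglia were 4 nuclear and 4 mt- in controls and 12 and 11 in antibiotic pools, and in Ly6CLow 0 and 11, and 1 and 11. The minimum of 4000 UMIs and the removal of shared barcodes were chosen after seeing the data. Among the alternatives, here and above, calls over all genes are given only for age with the depth minima. For the others, left-out pools included, a move in member calls cannot be told apart from a move over all genes. Ly6CLow pools of 33 to 86 cells limit what differences can be detected there.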
